A study of Caenorhabditis elegans with 36 samples.

Results

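The distribution of mRNAs between polysomes and monosomes was compared between *ppp-1* mutants and wild type (WT) *Caenorhabditis elegans*. For each gene the polysome to monosome shift was taken, which is log2 of polysome over monosome abundance in a mutant minus the same ratio in WT. A shift below 0 means that the mRNA was found more in monosomes, and a shift above 0 more in polysomes, than in WT. Of 41875 loci, 38790 carried a single gene name, and 11077 of these reached at least 1 FPKM (fragments per kilobase and per library size, a read density) in all 6 groups used. Of the 11077 loci, 10731 are annotated as protein-coding and are called mRNAs below, 153 carry another annotated biotype, and 193 carry a name not matched to a gene of the annotation.

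The groups were *ppp-1(wrm10)*, *ppp-1(wrm15)* and WT (Bristol N2) hermaphrodites at day 1 of adulthood, grown untreated on bacteria, with RNA from the polysome and from the monosome fraction of each. The *ppp-1* strains are called *wrm10* and *wrm15* mutants below. Both alleles are point mutations that came out of a longevity screen after mutagenesis and were then outcrossed. Fractions were cut by hand from sucrose gradients by their absorbance, and the polysome fraction left out disomes. The labels list 4 libraries in each of these 6 groups, 24 of the 36 libraries of the series, and the deposited table gives 1 pooled value per group.

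A monosome is a single 80S ribosome on an mRNA, and polysomes are several ribosomes on the same mRNA, so the balance between the fractions is a common readout of how densely an mRNA is loaded. It depends on the rate of initiation and on the length of the coding sequence, because a short open reading frame has room for few ribosomes. *ppp-1* encodes the gamma subunit of eIF2B, the exchange factor that reloads the initiation factor eIF2 with GTP. Phosphorylation of eIF2alpha by the kinases GCN-2 and PEK-1 in the integrated stress response (ISR) inhibits eIF2B. Spermatogenesis in hermaphrodites takes place in the last larval stage, before the switch to oocytes, and developing spermatids discard their ribosomes. Day 1 adults therefore hold mature sperm, oocytes and embryos beside the somatic tissues.

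Because values are pooled, no spread between libraries is known and no test was possible. mRNAs are described by a rule of size, a shift of at least 2-fold (1 on the log2 scale) in the same direction in both mutants, with a lower rule of 1.5-fold (0.58). Both mutants are set against the same WT values, so a deviation of WT enters both shifts, and their likeness is no independent support. The difference between the shifts of the mutants, in which WT cancels, serves as a measure of scatter. Its absolute median over mRNAs was 0.094, and 95% of mRNAs lay within 0.39. For the 1272 mRNAs whose lowest value was 1 to 2 FPKM, the median was 0.20 and the 95th percentile 0.72. For the 752 mRNAs of at least 100 FPKM, these were 0.055 and 0.18. FPKM is scaled within each fraction, so a shift is relative to the other RNAs of that fraction and not an amount per animal. In whole animals, fewer cells of a type and less RNA per cell cannot be told apart.

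Most mRNAs kept their balance between the fractions to within 1.5-fold, 94.3% of them in *wrm10* mutants and 94.5% in *wrm15* mutants. The median shift was 0.00080 and 0.024. Beyond that range the distribution leaned to 1 side. A shift of at least 2-fold towards monosomes in both mutants was found for 75 mRNAs (0.699% of 10731), and one towards polysomes for 6 (0.0559%). At 1.5-fold the numbers were 372 (3.47%) and 28 (0.261%). The 2-fold counts depended on how low levels were treated. They were 33 and 0 with a minimum of 5 FPKM, 43 and 1 with 1 FPKM added to each value, and 356 and 282 with no minimum. All 6 mRNAs past 2-fold towards polysomes had a value under 5 FPKM in at least 1 group, whereas 23 of the 75 past 2-fold towards monosomes had at least 10 FPKM in all 6. The median absolute difference between the alleles was 0.12 for the 75 mRNAs, which were chosen for passing the rule in both. The last to pass the rule was H38K22.6 (-1.0 and -1.04), and C14C10.1 (-1.05 and -0.999) fell just outside.

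**Figure D1:**
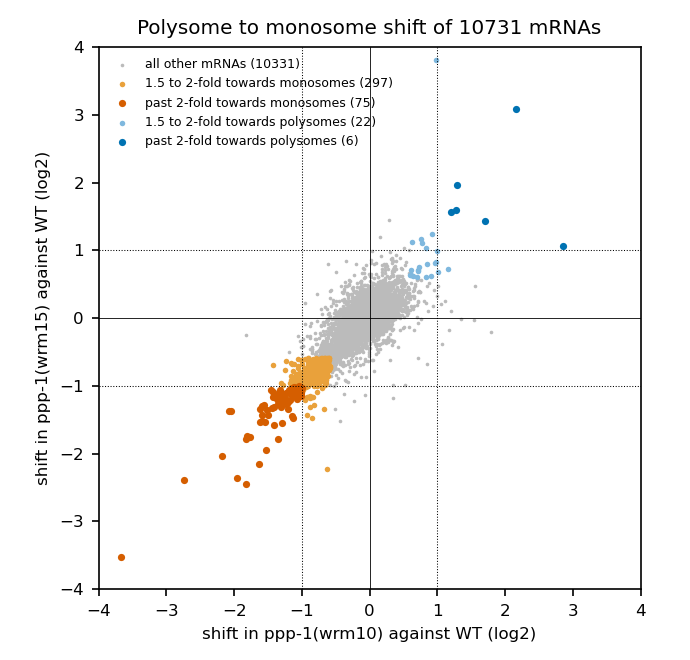
Shift of each of the 10731 mRNAs in *wrm10* mutants (x axis) and *wrm15* mutants (y axis), both against WT on the log2 scale; dotted lines mark 2-fold. The cloud has a long tail at the lower left, where 75 mRNAs lie past 2-fold towards monosomes in both mutants, against 6 at the upper right; the diagonal shape is in part set by the WT values that both axes share.

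Most of the 75 mRNAs had the higher FPKM in monosomes in the mutants and in polysomes in WT. As the fractions are scaled separately, this does not say where most copies of an mRNA lay. In *wrm10* mutants only 10 of them, and in *wrm15* mutants 13, had a higher FPKM in polysomes than in monosomes, against 71 in WT. Their median log2 ratio of polysome over monosome FPKM was -0.52 in *wrm10* mutants and -0.45 in *wrm15* mutants, against 0.81 in WT. Over all mRNAs the ratio was -0.017, 0.0041 and 0.063 in the same order of genotypes.

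The shift was made up in more than 1 way. For 36 of the 75 mRNAs, the polysome value was lower and the monosome value higher than in WT in both mutants. For 30, both values were higher, and the monosome value more so. For 3 both values were lower, and for 6 a fraction had opposite signs in the alleles. In the group of 30, the median difference from WT was 0.87 and 0.83 in polysomes and 2.09 and 2.11 in monosomes of *wrm10* mutants and *wrm15* mutants, on the log2 scale. In the group of 36 it was -0.67 and -0.60 in polysomes and 0.73 and 0.87 in monosomes.

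**Figure D2:**
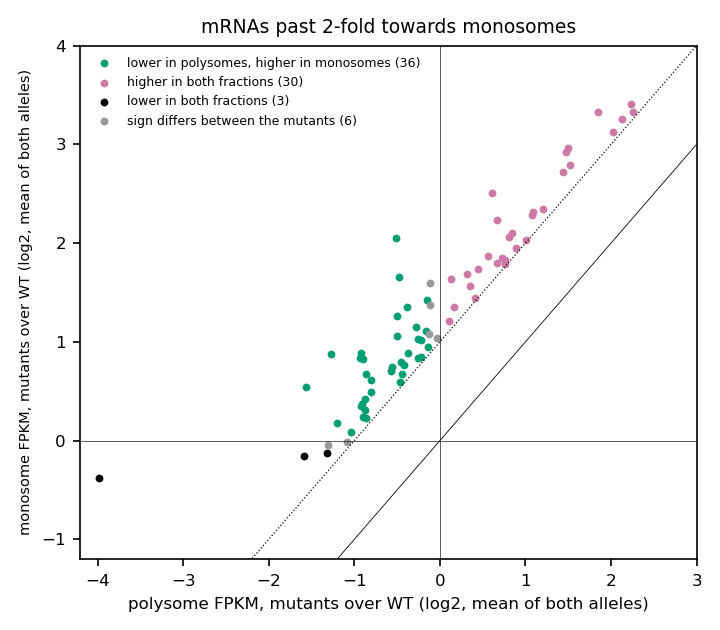
Difference from WT in polysomes (x axis) and monosomes (y axis) of the 75 mRNAs past 2-fold towards monosomes, on the log2 scale as the mean of both mutants. The solid line marks no shift and the dotted line 2-fold; 36 mRNAs lie at the upper left (lower in polysomes, higher in monosomes), 30 at the upper right (higher in both) and 3 at the lower left.

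Among the well expressed mRNAs of the first kind, C05B5.2 (chromosome III, 9999819 to 10000528 in WBcel235) had 23.4 FPKM in polysomes and 26.6 in monosomes of *wrm10* mutants. It had 29.9 and 33.4 FPKM in *wrm15* mutants, against 50.0 and 16.2 FPKM in WT. Both mutants thus had similar FPKM in the fractions, where WT had a higher FPKM in polysomes, and the shifts were -1.82 and -1.79. C33F10.1 (chromosome II, 4835023 to 4835717) had the same form at a higher level. It had 48.2 FPKM in polysomes and 52.7 in monosomes of *wrm10* mutants, and 60.3 and 63.0 FPKM in *wrm15* mutants, against 103.3 and 32.3 FPKM in WT, with shifts of -1.81 and -1.74. Its divergent neighbour C33F10.11 (4834145 to 4834861) had shifts of -1.54 in both mutants. Its polysome values were 15.6 and 15.95 FPKM in the mutants, against 28.8 FPKM in WT, and its monosome values were 22.8 and 23.2 FPKM, against 14.4 FPKM.

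The 2 *C. elegans* genes of the GIPC family of PDZ-domain proteins were both among the 75. *gipc-2* (chromosome IV, 10026413 to 10027666) had 69.0 and 75.3 FPKM in polysomes and monosomes of *wrm10* mutants. The values were 83.2 and 85.7 FPKM in *wrm15* mutants, against 139.3 and 59.8 FPKM in WT, with shifts of -1.35 and -1.26. *gipc-1*, named here after its values were seen, had shifts of -1.15 and -1.04, and its monosome values were 91.3 and 100.1 FPKM in the mutants, against 53.6 FPKM in WT. With coding lengths of 1071 bases each, the *gipc* mRNAs are the longest of the 75. C04F12.7 (-1.56 and -1.29), F08B4.8 (-1.44 and -1.32), F41H10.1 (-1.43 and -1.16) and T08B2.12 (-1.40 and -1.17) followed the same form, with lower polysome and higher monosome values in both mutants.

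F29B9.7 differed in its parts. Its polysome level was 19.4 and 20.9 FPKM in the mutants, against 18.4 FPKM in WT, and its monosome level 33.3 and 31.8 FPKM, against 10.5 FPKM in WT. The shift of -1.59 and -1.43 thus came from monosomes, as the polysome level was slightly higher than in WT. The locus overlaps a second protein-coding gene, so its reads may be shared, as holds for 16 of the 75 loci.

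**Figure D3:**
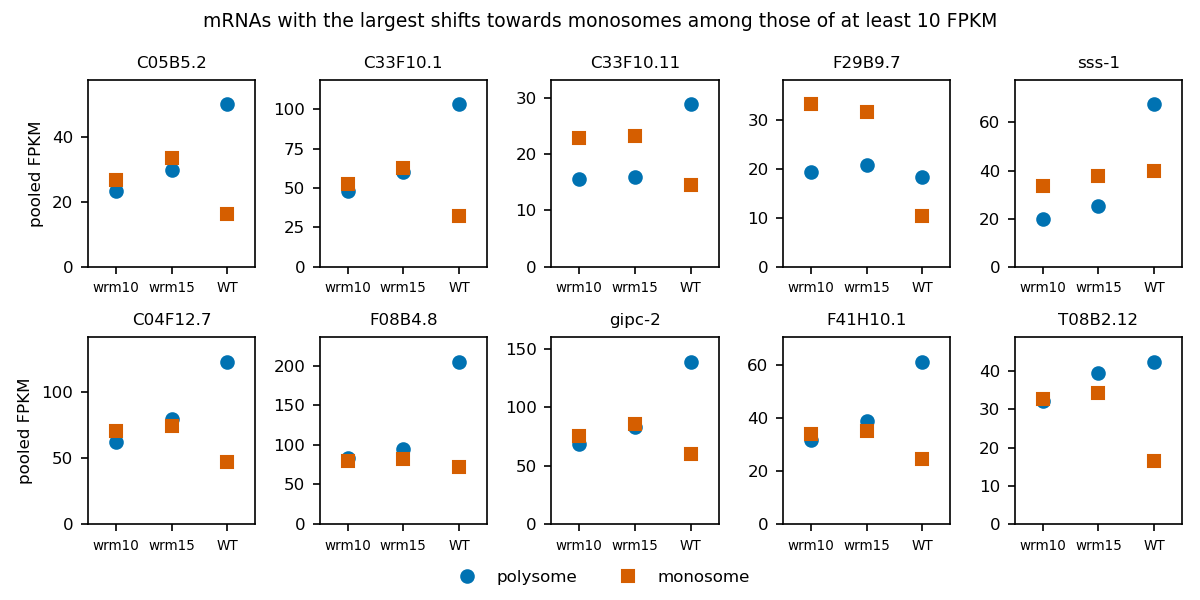
Pooled FPKM in polysomes (circles) and monosomes (squares) of *wrm10* mutants, *wrm15* mutants and WT for the 10 mRNAs of lowest mean shift among those with at least 10 FPKM in all 6 groups; each panel has its own axis from 0. In WT the polysome value stands above the monosome value in all 10 panels, and in *wrm10* mutants the fractions are close together or reversed.

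The lowest shift of all was that of Y94H6A.7 (chromosome IV, 2713174 to 2716574), with -3.67 in *wrm10* mutants and -3.53 in *wrm15* mutants. It belongs to the 3 mRNAs that were lower in both fractions. Its polysome value was 12.8 and 12.6 FPKM in the mutants, against 200.2 FPKM in WT, while its monosome value was 6.91 and 6.17 FPKM, against 8.48 FPKM. A single WT group value carries the whole shift. Next came short mRNAs at low levels. W04H10.1 (-2.74 and -2.40), with a coding length of 210 bases, had monosome values of 8.79 and 8.67 FPKM in the mutants, against 2.11 FPKM in WT. F28A10.7 (-1.95 and -2.35), C52E4.12 (-1.82 and -2.45), Y66A7A.9 (-2.18 and -2.03), C54G6.8 (-1.77 and -1.76) and C49C3.20 (-1.53 and -1.95) all had a value under 10 FPKM in at least 1 group. The loci of C52E4.12 and Y66A7A.9 each overlap another protein-coding gene. That of C52E4.12 also extends far beyond the named gene, so its values cannot be assigned to it alone. Of the 75 loci, 7 span more than 2 times the named gene.

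The mRNAs that were higher in both fractions include some of the largest differences in abundance. The examples were chosen after their values were seen. C47E8.11 had 51.1 and 48.8 FPKM in polysomes of the mutants, against 10.5 FPKM in WT. Its monosome values were 79.3 and 73.1 FPKM, against 7.59 FPKM in WT, which gave shifts of -1.10 and -1.05. R02D5.10 had 19.5 FPKM in polysomes of both mutants, against 4.47 FPKM in WT, and 29.2 and 31.7 FPKM in monosomes, against 3.19 FPKM, with shifts of -1.07 and -1.19, and its locus overlaps another protein-coding gene. For such mRNAs the polysome level of the mutants was not lower than in WT, and the monosome level differed from WT by more.

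Genes known from sperm stood out among the lists. *spe-29* encodes a small membrane protein of the *spe-8* group, whose members act in the signal that turns round spermatids into crawling sperm in hermaphrodites. *spe-29* (chromosome IV, 9933880 to 9934322, overlapping another protein-coding gene) had 3.24 and 2.11 FPKM in polysomes of the mutants, against 1.71 FPKM in WT. Its monosome values were 10.5 and 9.77 FPKM, against 1.78 FPKM, and its shifts were -1.64 and -2.15. Both WT values of *spe-29* lay between 1 and 2 FPKM, near the minimum, where the alleles scattered most. Other genes of the group, picked out after their values were seen, had shifts in the same direction. These were -1.31 and -0.95 for *spe-27*, -1.13 and -0.90 for *spe-12*, and -0.65 and -0.62 for *spe-8*, a non-receptor tyrosine kinase. For *spe-19*, which belongs to the same group, the shifts were 0.15 and -0.11.

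Of 66 listed sperm genes outside the *msp* family, 60 were measured, and 54 of these had a shift below 0 in both mutants. Their median shift was -0.35 and -0.40, beside 0.00017 and 0.025 over all 11077 loci. The list holds several members each of the *nspd*, *ssp*, *ssq* and *msd* families, whose values may not be independent. Past 1.5-fold towards monosomes were 9 of the 60 (15.0%, beside 3.47% of all mRNAs), 2 of them past 2-fold (*spe-29* and *sss-1*), and none was past 1.5-fold towards polysomes. *sss-1* had 20.0 and 25.3 FPKM in polysomes of the mutants, against 67.6 FPKM in WT, and 33.4 and 37.9 FPKM in monosomes, against 39.6 FPKM. The others were *spe-8*, *spe-12*, *spe-27*, *ssp-32*, *ssp-34*, *ssp-36* and *nspd-10*. At the other end stood *ssp-9* (0.53 and 0.83) and *spe-44*, a transcription factor of early spermatogenesis (0.58 and 0.33).

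The parts of the shift differed between the sperm lists. For the genes outside the *msp* family, the median difference from WT was 0.015 and 0.012 in polysomes and 0.43 and 0.37 in monosomes. Major sperm proteins, the cytoskeletal proteins that drive sperm crawling, are encoded by a family of near-identical genes, so the values of its members are not independent and reads may be split between them. All but 1 of the 31 measured *msp* genes had a shift below 0 in both mutants, with a median of -0.39 and -0.40. Their median difference from WT was -0.64 and -0.56 in polysomes, and -0.27 and -0.15 in monosomes. None of the 31 was past 1.5-fold, beside 3.47% of all mRNAs towards monosomes and 0.261% towards polysomes. *msp-65*, the lowest, had 65.7 and 72.4 FPKM in polysomes of the mutants, against 142.7 FPKM in WT, and 44.3 and 53.0 FPKM in monosomes, against 67.0 FPKM. *msp-71* was the exception (0.30 and 0.53), with polysome values of 3.77 and 3.85 FPKM, against 2.29 FPKM.

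The summed levels of sperm genes also differed from WT. Summed over the list, *msp* mRNAs came to 6396 FPKM in polysomes of *wrm10* mutants and 6795 of *wrm15* mutants, against 10088 FPKM in WT. In monosomes the sums were 5206 and 5673 FPKM, against 6237 FPKM. The other sperm genes came to 5354 and 5378 FPKM in polysomes, against 5017 FPKM, and to 5804 and 6251 FPKM in monosomes, against 4399 FPKM. The direction in polysomes was carried by *ssp-16* and *nspd-6*. *ssp-16* had 410 and 452 FPKM in polysomes of the mutants, against 60.1 FPKM in WT, and *nspd-6* had 580 and 589 FPKM, against 142 FPKM. Without both, the polysome sums of the remaining 58 genes were 4364 and 4336 FPKM, against 4815 FPKM, so lower than in WT, and the monosome sums were 4937 and 5293 FPKM, against 4240 FPKM. Of the 66 listed genes outside the *msp* family, 2 were at 0 in all 6 groups. The part of sperm content in the shifts was not tested. Genes on the sperm lists made up 2 of the 75 mRNAs past 2-fold (2.67%) and 9 of the 372 past 1.5-fold (2.42%). The lists hold 91 measured genes, beside 10731 mRNAs in all. The 9 are 9.89% of the 91, beside 3.47% of all mRNAs past 1.5-fold towards monosomes. Most of the shifted mRNAs carry no name on these lists. The lists were matched by name and only 9 of the 75 carry a gene class name, so this does not say which are sperm genes.

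Argonautes bind small RNAs, and 21 were measured. The highest was C04F12.1 (0.56 and 0.43), and the lowest were *alg-3* (-0.29 and -0.34) and *alg-4* (-0.25 and -0.26), the pair that acts with small RNAs in spermatogenesis. *alg-3* had 43.3 and 40.6 FPKM in monosomes of the mutants, against 22.7 FPKM in WT, and 40.6 and 36.9 FPKM in polysomes, against 26.0 FPKM. Among 95 kinases and phosphatases, *kin-14* (-0.64 and -0.55) and *kin-5* (-0.62 and -0.52) were lowest and *pph-5* (0.23 and 0.33) was highest. None of the 95 passed 1.5-fold in both mutants, beside 3.47% of all mRNAs towards monosomes and 0.261% towards polysomes.

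Shifts towards polysomes were few and small in level. Y50D4A.10, with a coding length of 153 bases, had the highest mean shift (2.16 and 3.08). It had 3.67 and 4.18 FPKM in polysomes of the mutants, against 1.77 FPKM in WT, and 2.55 and 1.53 FPKM in monosomes, against 5.49 FPKM. The C-type lectin gene *clec-196* had shifts of 1.70 and 1.43, with 5.42 and 3.44 FPKM in polysomes of the mutants, against 2.84 FPKM in WT. The other 4 were T22D1.17 (2.86 and 1.06), D2005.1 (1.28 and 1.96), H12I13.6 (1.28 and 1.59) and ZK792.7 (1.21 and 1.56). The loci of T22D1.17, D2005.1 and ZK792.7 each overlap another protein-coding gene, so their reads may be shared. Those of D2005.1 and ZK792.7 also extend far beyond the named gene, so their values cannot be assigned to it alone. For T22D1.17 the alleles differed by 1.80, more than the smaller of its shifts.

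Small nematode-specific peptide genes, short genes of unknown function in several families, were the list with the highest medians, 0.34 and 0.37 over 31 measured of 52. Of these, 18 had a shift above 0 in both mutants and 3 below 0, and *nspc-16*, *nspc-18* and *nspc-19* were past 1.5-fold towards polysomes (9.68% of the 31, beside 0.261% of all mRNAs). *nspc-18* had 24.8 and 25.9 FPKM in polysomes of the mutants, against 24.2 FPKM in WT, and 7.65 and 6.98 FPKM in monosomes, against 13.3 FPKM, with shifts of 0.84 and 1.03. The difference lay in the monosome value. The *nspc* genes are near copies of each other on the X chromosome, and reads may be split between them. The *nspd* genes, which share the *nsp* naming, were placed on the sperm list and not here. The measured *nspd* genes all went the other way, with mean shifts from -0.85 (*nspd-10*) to -0.24 (*nspd-6*).

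Of 75 cytosolic ribosomal protein genes, 69 had a shift above 0 in both mutants, with a median of 0.15 and 0.13. None of the 75 passed 1.5-fold, beside 3.47% of all mRNAs towards monosomes and 0.261% towards polysomes. *rpl-11.2* (0.35 and 0.23) and *rpl-3* (0.32 and 0.25) were highest. *rpl-42* was lowest (-0.53 and -0.35), at 2.59 and 3.05 FPKM in polysomes of the mutants, against 5.04 FPKM in WT. The median of the 75 genes was -0.21 and -0.11 in polysomes and -0.37 and -0.24 in monosomes relative to WT. Translation initiation, elongation and release factors had medians of 0.058 and 0.12, with 32 of 44 above 0 in both mutants. Mitochondrial ribosomal proteins were near 0 (0.010 and 0.047).

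The 14 genes of the ISR core were all measured, and none passed 1.5-fold. Of all mRNAs, only 3.47% did so towards monosomes and 0.261% towards polysomes, so none among 14 says little about the ISR. The median shift of the 14 genes was -0.0050 and 0.049. *eif-2alpha*, the subunit of eIF2 that the stress kinases phosphorylate, had the highest shift (0.31 and 0.35). It had 245 and 258 FPKM in polysomes of the mutants, against 253 FPKM in WT, and 106 and 109 FPKM in monosomes, against 136 FPKM. The mutated gene itself, listed as *eif-2Bgamma*, had shifts of -0.046 and 0.045, and the lowest were *eif-2Bdelta* (-0.20 and -0.052) and *eif-2Bepsilon* (-0.11 and -0.12). The kinases *gcn-2* (0.23 and -0.046) and *pek-1* (0.11 and 0.024) were near 0. *atf-5* is the worm ATF4, and the study, which calls it *atf-4*, describes its translation as regulated by upstream open reading frames. It had a higher FPKM in monosomes than in polysomes in all genotypes. It had 11.8 and 9.87 FPKM in polysomes of the mutants, against 11.96 FPKM in WT, and 49.1 and 51.4 FPKM in monosomes, against 52.6 FPKM, with shifts of 0.083 and -0.24. The name *atf-5* was not matched to the annotation. Its locus overlaps 2 protein-coding genes, which may include the gene itself, so its reads may be shared. The other 6 subunits and factors (*eif-2A*, *eif-2beta*, *eif-2gamma*, *eif-2Balpha*, *eif-2Bbeta* and *gcn-1*) and *eif-2D* had mean shifts between -0.10 and 0.13.

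The study ran an RNAi screen of mRNAs enriched in *ppp-1* polysomes, in *wrm10* mutants that express a polyglutamine protein in muscle. It gave 7 genes whose knockdown lowered the motility of these animals, and 4 of the 7 were measured here. In the study's follow-up not all of the 7 lowered motility in both alleles, but *kin-35* did. The kinase gene *kin-35*, listed as M04F3.3, had shifts of 0.059 and 0.19. It was higher in the mutants in polysomes (10.5 and 10.3 FPKM, against 4.67 FPKM in WT) and in monosomes (13.7 and 12.2 FPKM, against 6.31 FPKM). Its FPKM thus differed alike in both fractions. The study used another measure, polysome over total RNA. Its qPCR found more *kin-35* mRNA on polysomes without a higher overall abundance. Total RNA was not used here, so the shift neither repeats nor opposes that result. *snap-1* (0.090 and 0.072), *tads-1* (-0.016 and 0.12) and K04C2.3 (-0.027 and 0.16) were also within 1.5-fold. The screened mRNAs were chosen by the study on these samples, so the list is not independent evidence of a direction.

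Several somatic lists had medians about as far above 0 as the ribosomal proteins, and the oocyte and eggshell lists lay closer to 0. Cuticle collagens, with 114 of 176 measured, had medians of 0.13 and 0.15, and 89 had a shift above 0 in both mutants, from *col-127* (-0.027 and -0.44) to *dpy-17* (0.85 and 0.47). Muscle filament genes had medians of 0.15 and 0.11, and none of the 28 was below 0 in both. The 6 vitellogenins, the yolk proteins made in the intestine, were all above 0 in both mutants (medians 0.088 and 0.19). Oocyte and maternal RNA-binding genes had medians of 0.048 and 0.015 over 48 genes, and eggshell genes 0.047 and 0.044 over 19. Among 62 C-type lectins, 4 were past 1.5-fold towards monosomes (6.45%, beside 3.47% of all mRNAs) and 1 towards polysomes (1.61%, beside 0.261%), with *clec-117* (-1.02 and -1.15) and *clec-196* past 2-fold. In all, the medians of the 26 lists other than the sperm and small peptide lists lay between -0.078 and 0.21, and 22 of the 26 had no member past 1.5-fold in both mutants. For short lists the lack of such a member says little, given the shares of 3.47% and 0.261% over all mRNAs.

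**Figure D4:**
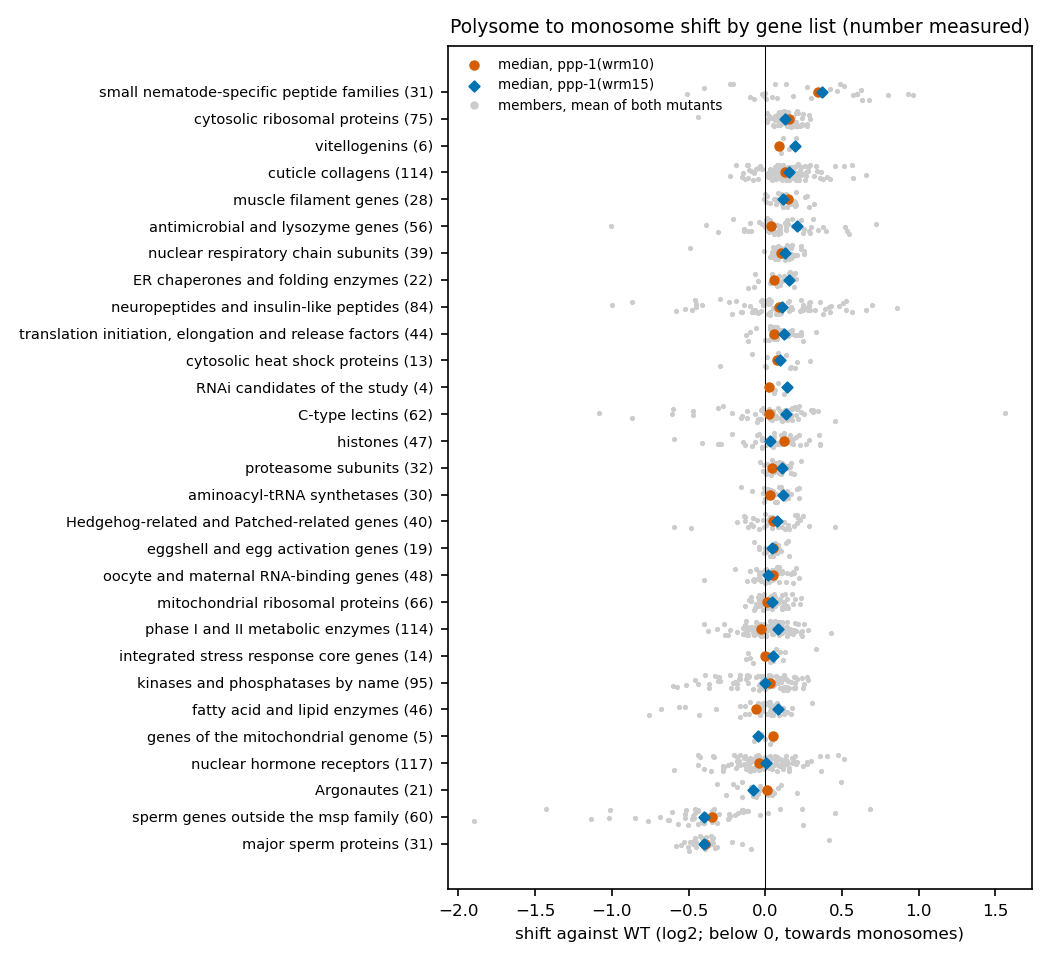
Shift against WT on the log2 scale for 29 gene lists, with the number measured in brackets. Grey points are members (mean of both mutants), circles the median in *wrm10* mutants and diamonds the median in *wrm15* mutants; both sperm lists lie left of all others, near -0.4, and the small peptide list lies furthest right.

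The shifted mRNAs were short. The median coding length (the longest annotated coding sequence of a gene) was 456 bases for the 75 mRNAs and 564 bases for the 372, against 1116 bases for all mRNAs. Shortness was not particular to the direction. The mRNAs shifted towards polysomes had medians of 375 bases for the 6 past 2-fold and 408 bases for the 28 past 1.5-fold. Of mRNAs under 300 bases, 1.53% were past 1.5-fold towards polysomes, beside 0.261% of all mRNAs. Of the 75, 69 were under 900 bases, which is 92.0% against 37.5% of all mRNAs, and the longest had 1071 bases. Of mRNAs with a coding length under 300 bases, 9.94% were past 1.5-fold towards monosomes. The share was 8.29% from 300 to under 600 bases, 5.09% from 600 to under 900, 3.26% from 900 to under 1200 and 0.747% from 1200 to under 1800. The median shift of all mRNAs under 300 bases was 0.026 and 0.038. Ribosomal protein mRNAs had a median coding length of 438 bases. The part of coding length in the shifts was not tested. An exception in length was *rrf-3*, an RNA-dependent RNA polymerase of the germline small RNA pathway, with 5295 coding bases and shifts of -0.72 and -0.87. It was named after its values were seen.

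The mRNAs shifted towards monosomes also came almost wholly from autosomes. Of 1393 mRNAs on the X chromosome, none was past 2-fold towards monosomes and 3 (0.215%) past 1.5-fold, against 75 (0.803%) and 369 (3.95%) of 9338 autosomal mRNAs. Among mRNAs with a coding length under 900 bases, 3 of 496 on X (0.605%) and 283 of 3524 on autosomes (8.03%) were past 1.5-fold. The share was highest on chromosome IV (5.26%) and I (4.52%) and lowest among autosomes on III (2.60%). Towards polysomes the order at 1.5-fold was the other way, with 8 of 1393 on X (0.574%) and 20 of 9338 on autosomes (0.214%). The 8 on X include the 3 *nspc* genes. At 2-fold the order was not reversed, with none on X and 6 on autosomes (0.0643%). As background, the X chromosome of *C. elegans* is poor in genes expressed in spermatogenesis. Genes are not replicates, and neither these shares nor the part of sperm expression in them was tested.

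**Figure D5:**
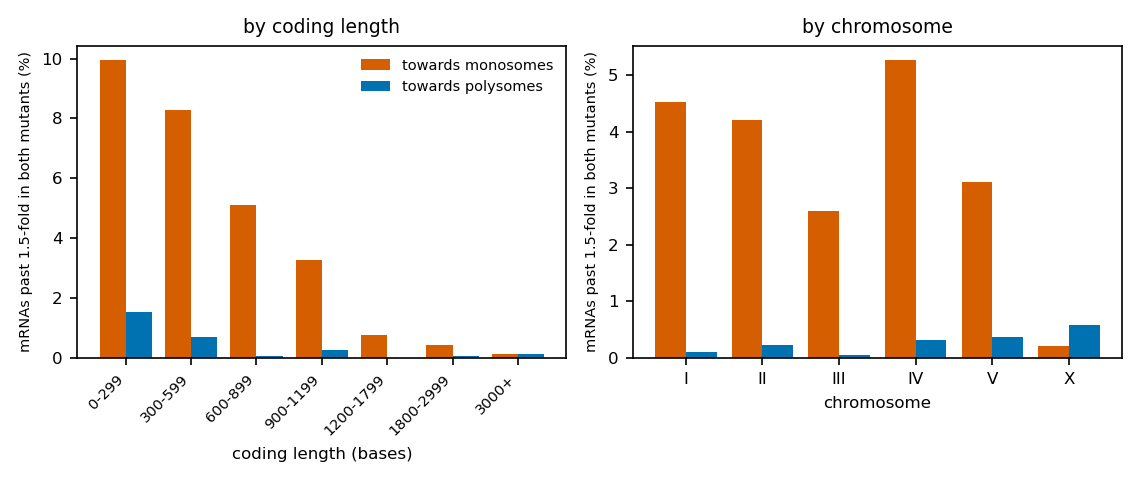
Share of mRNAs past 1.5-fold in both mutants towards monosomes (orange) and towards polysomes (blue), in percent, by coding length in bases and by chromosome. The share towards monosomes is 9.94% under 300 bases and 0.117% from 3000 bases on, and 0.215% on X against 2.60% to 5.26% on the autosomes.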

How the data were processed

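RNA of the polysome and monosome fractions of *ppp-1(wrm10)*, *ppp-1(wrm15)* and WT animals was sequenced after depletion of ribosomal RNA. According to the study's methods and the labels, the authors mapped reads with HISAT2 2.1.0 to WBcel235 (Ensembl 91), assembled transcripts with StringTie 1.3.4d, and quantified and compared groups with Cuffdiff of Cufflinks 2.2.1. The values the authors deposited are FPKM, 1 pooled value per group and locus. How that run normalized libraries is not given in the sources used here. Beside these, the deposited table holds, for pairs of groups, log2 fold changes, test statistics, p-values and q-values, which were not used. It gives no counts, so depth is unknown, and how far a single library decides a value cannot be seen.

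Names were matched to the WBcel235 annotation of Ensembl 115 (by symbol, older symbol or sequence name, at an overlapping position), which gave biotype, position and coding length. Loci under 1 FPKM in any of the 6 groups and loci with joined names were left out, and total RNA was not used. Shifts were computed with Python 3.11.15 and pandas 2.3.3 with no pseudocount, and the calculation was checked on made-up input with known answers. Members of each list were found by gene name. Genes were named by rule: the 10 highest and 10 lowest mean shifts of mRNAs past 2-fold in both mutants (only 6 exist towards polysomes), the same among those of at least 10 FPKM (none towards polysomes), the ISR core, the RNAi hits, and the highest and lowest 2 of a list. Names carried by several loci were left out. Genes and lists were chosen with earlier results of these data known. Alternatives were pseudocounts of 0.1 and 1 FPKM, no minimum, a minimum of 5 FPKM, centring on the median, other fold rules, the mean of the mutants, joined names and, added after the data were seen, loci overlapping no other coding gene, and sperm sums without *ssp-16* and *nspd-6*. Strand specificity of the libraries is not given in the sources used here.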

Additional observations from a re-analysis of the deposited data

Results flagged for a closer look

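A single locus passed 2-fold in opposite directions in the mutants, listed under the snoRNA C27H6.5, with a shift of -1.71 in *wrm10* mutants and 1.02 in *wrm15* mutants. It had 133 FPKM in polysomes and 1462 in monosomes of *wrm10* mutants, and 180.1 and 299 FPKM in *wrm15* mutants, against 85.5 and 288 FPKM in WT. The difference was not tested. The assembled locus spans 9966404 to 9976226 on chromosome V and the snoRNA only 9970204 to 9970271, so the value cannot be assigned to the snoRNA. No mRNA was past 2-fold in opposite directions.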

How the results depend on the processing

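No paired analysis was possible because the values are pooled per group, and for the same reason no replicate could be left out. Towards monosomes and polysomes in both mutants, 75 and 6 mRNAs were past 2-fold. The counts were 72 and 6 with 0.1 FPKM added, 43 and 1 with 1 FPKM added, 33 and 0 with a minimum of 5 FPKM (7443 mRNAs), and 356 and 282 with no minimum (15364 mRNAs). The lean towards monosomes was thus far smaller once loci under 1 FPKM were let in. They were 372 and 28 at 1.5-fold, 9 and 1 at 3-fold, 81 and 6 after centring, and 108 and 9 on the mean of the mutants. With joined names included they were 75 and 6. With loci that overlap no other coding gene, an alternative chosen after seeing the data, they were 59 and 3 (7658 mRNAs). The 42 named genes include the 14 ISR core genes and 4 RNAi hits, none of which was past 2-fold to begin with. Of the others, 5 were no longer past 2-fold in both mutants with 1 FPKM added. All of them were among the 6 towards polysomes (T22D1.17, D2005.1, *clec-196*, H12I13.6 and ZK792.7), and no direction turned. The medians of all 29 lists differed from the main value by less than the typical difference between the alleles under each alternative run on them.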

Other observations

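Of the 153 loci named for a gene of another biotype, mostly snoRNAs, snRNAs and other non-coding RNAs, 10 were past 2-fold towards polysomes in both mutants (6.54%, beside 0.0559% of mRNAs) and 4 towards monosomes (2.61%, beside 0.699%). Of these 14 loci, 11 overlap a protein-coding gene and 9 span more than 2 times the named RNA, so most of their values cannot be assigned to the named RNA. The locus of the snoRNA T06C12.16, which spans that RNA alone and overlaps no coding gene, had 255 and 445 FPKM in polysomes of *wrm10* mutants and *wrm15* mutants, against 114 FPKM in WT, and 966 and 493 FPKM in monosomes, against 1255 FPKM. The locus listed under the snoRNA C08D8.3, which extends beyond it and overlaps a coding gene, had 77.4 and 60.1 FPKM in polysomes of the mutants, against 350.7 FPKM in WT, and 463 and 326 FPKM in monosomes, against 451 FPKM. The locus listed under the Y RNA gene *yrn-1*, for which the same holds, had shifts of 1.04 and 1.49. The 80 snoRNA loci had a median shift of -0.17 in *wrm10* mutants and 0.44 in *wrm15* mutants.

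The largest difference between the alleles among mRNAs was that of *pud-1.2*, which belongs to a group of near-identical genes, with shifts of 0.97 in *wrm10* mutants and 3.80 in *wrm15* mutants. It had 5.41 and 16.5 FPKM in polysomes of the mutants, against 5.07 FPKM in WT, and 9.89 and 4.24 FPKM in monosomes, against 18.2 FPKM. In all, 26 of 10731 mRNAs differed by at least 2-fold between the alleles.

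Some mRNAs were higher in both fractions of the mutants and also shifted towards monosomes by less than 2-fold. The histone gene *his-70* had 72.4 and 67.9 FPKM in polysomes of the mutants, against 17.9 FPKM in WT, and 115.3 and 118 FPKM in monosomes, against 19.7 FPKM, with shifts of -0.53 and -0.66. The CPEB gene *cpb-2* had 30.1 and 28.04 FPKM in polysomes, against 8.63 FPKM, and 50.4 and 43.1 FPKM in monosomes, against 10.5 FPKM, with shifts of -0.46 and -0.34. The cytochrome c gene *cyc-2.2*, the lowest of 39 respiratory chain genes (-0.45 and -0.53), had 152 and 148 FPKM in polysomes of the mutants, against 116 FPKM in WT, and 174 and 178 FPKM in monosomes, against 96.6 FPKM.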
